A study of Mus musculus with 11 samples.

Results

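Heart macrophages taken 30 days after cardiac injury were compared with the same sorted population from uninjured hearts by microRNA (miRNA) array. The members were 5 of the 11 arrays of the series, chosen by their titles: 3 arrays labelled Ly6clow/CX3CR1high at day 30 and 2 labelled Ly6clow/CX3CR1high at day 0. All animals were Cx3cr1GFP/+ mice aged 2 to 3 months, which carry GFP at the Cx3cr1 locus, and GFP+ cells were sorted from the heart. Day 0 hearts had no operation of any kind, so that the comparison joins the freezing injury (cryoinjury, the infarction model used), the surgery around it and 30 days of elapsed time. GFP from this locus marks every cell type that expresses CX3CR1 and not macrophages alone. The labels describe the samples as biologically independent replicates, and 100 ng of total RNA was labelled with Cy3 for each array.

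A miRNA is a short RNA that guides a silencing complex to messenger RNAs, mainly through bases 2 to 8 at its 5′ end, the seed; miRNAs that share a seed are counted as a family because they can bind the same sites. Macrophages carry miRNAs common to blood cells, such as the miR-142 pair and miR-223, and others that follow their activation, such as miR-155, miR-146a and miR-21. In the injured heart, monocyte-derived macrophages first remove dead tissue, and Ly6Clow cells of later stages take part in scar formation and repair.

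The sequences of the miRNAs on which the comparison turned are given with the seed in capitals, from RefSeq (GRCm38.p6). First come the families in which several members share a seed, the miR-29, miR-15/16, miR-26 and miR-27 families.
miR-29a-3p: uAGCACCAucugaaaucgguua
miR-29b-3p: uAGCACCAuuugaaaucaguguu
miR-29c-3p: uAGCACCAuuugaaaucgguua
miR-15a-5p: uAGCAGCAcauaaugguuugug
miR-15b-5p: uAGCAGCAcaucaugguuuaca
miR-16-5p: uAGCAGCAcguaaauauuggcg
miR-322-5p: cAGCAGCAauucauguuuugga
miR-26a-5p: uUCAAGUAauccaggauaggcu
miR-26b-5p: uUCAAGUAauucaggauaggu
miR-27a-3p: uUCACAGUggcuaaguuccgc
miR-27b-3p: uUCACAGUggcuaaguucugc

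The next set starts with 3 miRNAs of the miR-17-92 cluster, which come from one precursor transcript and have different seeds. Of these, miR-19b-3p and miR-92a-3p are also encoded at another locus. Then come miRNAs with large increases in share.
miR-19b-3p: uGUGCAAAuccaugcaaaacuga
miR-20a-5p: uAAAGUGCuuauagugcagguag
miR-92a-3p: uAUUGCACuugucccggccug
miR-142a-3p: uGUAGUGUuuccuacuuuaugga
miR-21a-5p: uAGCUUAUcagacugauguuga
miR-10a-5p: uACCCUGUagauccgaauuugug
miR-22-3p: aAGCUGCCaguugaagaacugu

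The last set holds miRNAs whose share fell; miR-2137 and miR-3473b are rich in G and C, and miR-467f holds a run of alternating A and C.
miR-494-3p: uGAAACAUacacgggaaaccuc
miR-2137: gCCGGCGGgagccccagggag
miR-3473b: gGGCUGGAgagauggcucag
miR-467f: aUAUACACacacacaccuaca
miR-3098-5p: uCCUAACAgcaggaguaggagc

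Of 1247 miRNAs on the array, 127 were detected on all 5 arrays, 116 on all 3 day 30 arrays and neither day 0 array, 2 on both day 0 arrays and no day 30 array, 896 on none, and 106 in other combinations. Between 151 and 173 miRNAs were detected per day 0 array and between 290 and 340 per day 30 array. The summed signal of the 127 miRNAs was 16873 to 24370 scanner units at day 0 and 225160 to 348820 at day 30, so that the dimmest day 30 array was 9.24 times as bright as the brightest day 0 array. The control features named dmr differed by 2.04-fold at most over the same arrays. Array brightness and stage therefore cannot be told apart in this comparison, nor can fewer cells of a type and less of a miRNA per cell. For this reason each miRNA was expressed as its share, the percentage of the summed signal of the 127 on its own array, and as its rank among them, with rank 1 the brightest. A share or rank depends on the probe as well as on the miRNA and is compared only for one miRNA between arrays.

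Day 30 replicates 2 and 3 were nearly the same measurement. Over 290 miRNAs, with the median difference between the arrays removed, their median absolute log2 difference was 0.06, and 94.1% differed by at most 2 scanner errors, against 19.4% to 76.4% in the other 9 pairs of replicates in the series. Their mean therefore stood for 1 sample, leaving 2 samples against 2. The largest exceptions were miR-494-3p, miR-5622-3p and miR-1224-5p, whose log2 shares were 1.74, 1.53 and 1.36 higher in replicate 3. The day 0 arrays agreed least of all pairs, with a median absolute difference of 1.06 and 19.4% within 2 scanner errors. An exact permutation test of 2 samples against 2 cannot give a 2-sided p below 0.333. The tests below therefore took their spread from all 4 groups of the series, 10 samples in all. A standard error below is thus pooled over groups, and by limma in part across miRNAs, and may understate the spread of day 0. In a fit of only the 4 samples compared, the median standard error of a share change was 0.67, against 0.53.

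At day 30, miR-142a-3p, miR-29b-3p and miR-21a-5p made the largest rises in share, and miR-721 and miR-494-3p were among the largest falls. In the limma test of log2 share, 79 of 127 miRNAs passed a Benjamini-Hochberg adjusted p under 0.05 (62.2%), of which 25 rose (19.7%) and 54 fell (42.5%). The median change of all 127 was -0.57, so that falls were the more common direction on this scale. The rises ran from 1.33 to 4.13 log2 and the falls from -4.06 to -1.17. Between the groups, shares did not overlap for 97 miRNAs (76.4%), 34 of them higher (26.8%) and 63 lower (49.6%) at day 30. These 97 held all 79 that passed, and all 79 changed in the same direction on each of the 2 slides. Without scaling, 125 of the 127 had a higher mean at day 30, and miR-721 and miR-149-5p had lower ones. Apart from these 2, a fall in share is therefore a fall against the other miRNAs on the array and not in mean signal.

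The within-array rank, which uses no denominator, gave 38 calls in the limma test (29.9%), 16 upward (12.6%) and 22 downward (17.3%). In 34 miRNAs both measures passed in the same direction (26.8%), 12 higher (9.45%) and 22 lower (17.3%), and no miRNA was called in opposite directions. Without day 30 replicate 1 the share test called 46 and the rank test 11; without day 0 replicate 1 the rank test called 86. With the summed signal of each array as a covariate, limma called 0 of 127 on either measure, and 14 on the share and 22 on the rank had an unadjusted p under 0.05. The median standard error (SE) of a share change was then 1.13, against 0.53, since brightness and group nearly coincide.

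**Figure D1:**
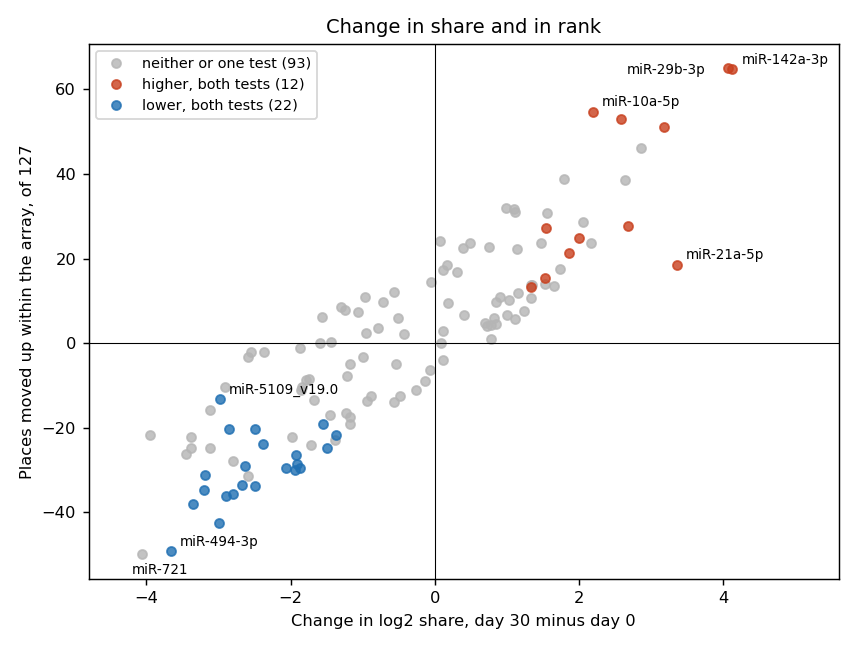
Change in log2 share (day 30 minus day 0, horizontal) against places moved up within the array (vertical) for the 127 miRNAs detected on all 5 arrays; colours mark the 12 higher and 22 lower that passed both limma tests. miR-29b-3p and miR-142a-3p lie at the top right, and miR-721, whose rank change did not pass, lies at the bottom left; without scaling, 125 of the 127 had higher signals at day 30.

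Among blood-cell miRNAs, miR-142a-3p, made in nearly all haematopoietic cells, made the largest rise of all. Its share was 0.159% and 0.032% on the day 0 arrays and 1.53%, 0.975% and 1.05% on the day 30 arrays. The lowest day 30 array thus lay above the higher day 0 array by several times. The rise between 2 and 2 samples was 4.13 log2 ± 0.57 (SE from the spread pooled over all 4 groups), a factor of 17.5 (limma, adjusted p = 2.1e-08). The rise was 3.27 on slide 1 and 4.99 on slide 2. Its rank moved from 62 and 109 to 16, 26 and 25 (adjusted p = 0.0167).

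miR-223-3p, a miRNA of granulocytes and monocytes, was among the brightest entries and did not pass. Its share was 4.64% and 1.26% at day 0 and 4.40%, 3.99% and 4.23% at day 30, and the groups overlapped because one day 0 array lay above all 3. Its change was 0.82 ± 0.54 (adjusted p = 0.171). The myeloid and pan-leukocyte list had 3 tested members, of which 1 rose and 0 fell, against 19.7% and 42.5% of all tested, with a median change of 0.82 against -0.57. miR-142a-5p, the other arm of the miR-142 hairpin, was detected only at day 30 and is described further on.

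miR-21a-5p, which rises in many injured tissues, was among the largest rises of the comparison. It held 1.48% and 0.537% of the signal at day 0 and 9.01%, 8.99% and 9.53% at day 30. The 3 day 30 arrays lay close together and far above both day 0 arrays. The change was 3.35 ± 0.53, a factor of 10.2 (adjusted p = 2.46e-07), and its rank went from 16 and 25 to 2 on each day 30 array (adjusted p = 0.00779).

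Other miRNAs of the Toll-like receptor and NF-kappaB response moved differently. miR-146a-5p, which is induced by NF-kappaB and represses Irak1 and Traf6, held 0.831% and 0.254% at day 0 and 1.25%, 0.906% and 0.994% at day 30. Its arrays did not overlap, but the change of 1.24 ± 0.58 missed the threshold (adjusted p = 0.0562). miR-125a-5p, a further miRNA of this response, fell in share from 0.166% and 0.132% to 0.0496%, 0.0576% and 0.0605% (-1.45 ± 0.53, adjusted p = 0.0144), while without scaling its signal was 2.38 log2 higher. Of the 5 tested members of the list 1 rose and 1 fell, against 19.7% and 42.5% of all tested, and the median change was -0.14 against -0.57. miR-155-5p, an early product of inflammatory activation, was detected on the 3 day 30 arrays and on neither day 0 array. Its share at day 30 was at least 2.08 times that at day 0.

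**Figure D2:**
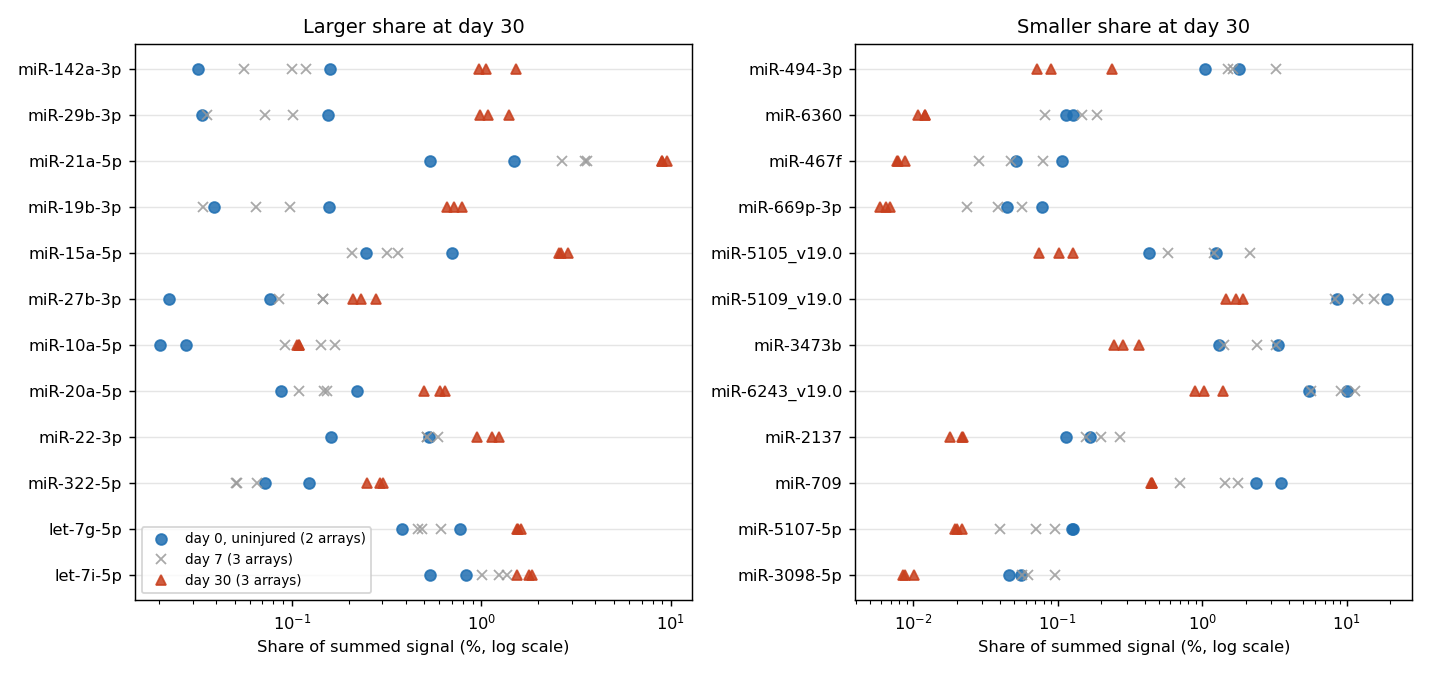
Share of summed signal in percent (horizontal, log scale) for the 12 miRNAs with the largest rise (left) and the 12 with the largest fall (right) among those passing both tests; each point is 1 array, with day 7 arrays of the same population as grey crosses. In every row the day 30 triangles lie on one side of both day 0 circles; without scaling, all 12 on the right had a higher mean signal at day 30.

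The miR-29 family, which represses collagens and other matrix genes, rose in all 3 tested members, with a median of 2.63. Of all tested, 19.7% rose and the median change was -0.57. miR-29b-3p held 0.154% and 0.0335% at day 0 and 1.41%, 0.986% and 1.09% at day 30, a change of 4.07 ± 0.57 (adjusted p = 2.83e-08). miR-29c-3p went from 0.223% and 0.0601% to 0.710%, 0.699% and 0.756% (2.63 ± 0.55, adjusted p = 3.42e-05). miR-29a-3p went from 1.80% and 0.539% to 3.07%, 3.10% and 3.19% (1.66 ± 0.53, adjusted p = 0.0061). In each of the 3 the groups were apart, and the larger day 0 value came from replicate 1, the brighter array. Together they made up 2.17% and 0.632% of the signal at day 0 and 5.18%, 4.78% and 5.04% at day 30. Only miR-29b-3p also passed on rank, where it moved from 65 and 108 to 19, 25 and 23 (adjusted p = 0.0207); miR-29c-3p had an adjusted p of 0.0593 and miR-29a-3p of 0.0529.

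The miR-15/16 family, which restrains the cell cycle and represses Bcl2, rose in 3 of 4 tested members, against 19.7% of all tested. The median change was 1.53 against -0.57. miR-15a-5p went from 0.704% and 0.245% to 2.62%, 2.57% and 2.85% (2.68 ± 0.53, adjusted p = 1.79e-05), with no overlap. miR-322-5p, which has the same seed but lies elsewhere in the genome, went from 0.122% and 0.0719% to 0.250%, 0.290% and 0.302% (1.54 ± 0.52, adjusted p = 0.00893). miR-16-5p changed by 1.53 ± 0.55 (adjusted p = 0.014) and miR-15b-5p by 0.78 ± 0.53 (adjusted p = 0.182). In miR-15b-5p the higher day 0 share, 0.903%, lay just under the lowest day 30 share, 0.928%. miR-15a-5p and miR-322-5p also passed on rank.

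The miR-17-92 cluster and its paralogues, which promote cell proliferation and survival, gave unequal values. miR-19b-3p went from 0.157% and 0.039% to 0.661%, 0.720% and 0.786% (3.17 ± 0.56, adjusted p = 2.49e-06). miR-20a-5p went from 0.219% and 0.0874% to 0.496%, 0.603% and 0.642% (2.00 ± 0.53, adjusted p = 0.00104). Both were apart from day 0 on every array. miR-92a-3p went from 0.663% and 0.629% to 0.378%, 0.490% and 0.505%, lower on each day 30 array. Its change of -0.57 ± 0.53 did not pass (limma, adjusted p = 0.334) and was positive without scaling (3.26). It is cut from the same precursor, but miR-92a-3p and miR-19b-3p also come from a paralogous cluster, and the array does not part the loci. Of 5 tested members of these clusters 2 rose and 0 fell, against 19.7% and 42.5% of all tested. The median change was 1.12. Of 12 members on the array 3 were detected only at day 30, against 9.3% of all miRNAs on the array (71.9% of which were detected on none). The ratios of their day 30 share to the day 0 limit described below were 10.8, 5.29 and 0.73. At a ratio of 1 or less no difference from day 0 can be stated.

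The miR-23-27-24 clusters rose in 3 of 5 tested members, against 19.7% of all tested, with a median of 1.35. miR-27b-3p, which represses Pparg, went from 0.0765% and 0.0224% to 0.279%, 0.211% and 0.233% (2.59 ± 0.54, adjusted p = 3.45e-05). It also passed on rank, moving from 87 and 119 to 47, 53 and 53. miR-27a-3p changed by 1.73 ± 0.55 (adjusted p = 0.00557) and miR-23b-3p by 1.35 ± 0.53 (adjusted p = 0.0236), both without overlap. In the miR-26 pair, whose genes lie in introns of the Ctdsp phosphatase genes, miR-26b-5p rose by 2.86 ± 0.58 (adjusted p = 2.69e-05) and miR-26a-5p changed by 1.11 ± 0.54 (adjusted p = 0.0662).

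The let-7 family, a large family of differentiated cells, showed no common movement. Of 8 tested members 3 rose and 0 fell, against 19.7% and 42.5% of all tested, and the median change was 0.12. let-7g-5p went from 0.769% and 0.383% to 1.55%, 1.54% and 1.61% (1.53 ± 0.52, adjusted p = 0.00934). let-7i-5p went from 0.829% and 0.534% to 1.55%, 1.78% and 1.85% (1.33 ± 0.52, adjusted p = 0.0218), and let-7f-5p changed by 1.33 ± 0.53 (adjusted p = 0.0261). let-7g-5p and let-7i-5p also passed on rank, and let-7f-5p did not (adjusted p = 0.0774). let-7a-5p had shares of 4.13% and 1.51% at day 0 that lay on both sides of its day 30 shares of 2.79%, 2.60% and 2.69%; its change was 0.12 ± 0.53.

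Of the remaining rises, miR-10a-5p, encoded within the Hoxb cluster, had nearly equal day 30 values. Its share was 0.0276% and 0.0202% at day 0 and 0.107%, 0.109% and 0.109% at day 30 (2.19 ± 0.52, adjusted p = 0.000231). Its rank moved from 115 and 123 to 62, 65 and 68, with the lowest adjusted p among the 12 that rose on both measures, 0.000273. miR-22-3p went from 0.530% and 0.161% to 0.950%, 1.14% and 1.25% (1.87 ± 0.53, adjusted p = 0.00204). miR-34a-5p, a direct target of p53, rose by 2.17 ± 0.55 (adjusted p = 0.000566), and its rank change did not pass (adjusted p = 0.0546). miR-511-3p, encoded inside Mrc1, the mannose receptor gene and a marker of tissue macrophages, went from 0.202% and 0.0705% to 0.465%, 0.506% and 0.543% (2.05 ± 0.56, adjusted p = 0.00145). It was the only one of 4 tested members of the alternative activation list to pass, and its rank did not (adjusted p = 0.119). miR-30b-5p rose by 1.79 ± 0.58 (adjusted p = 0.0071), alone among 4 tested members of the miR-30 family. No tested member passed in the miR-99/100 family (2 tested, median -0.12) or the miR-181 family (1 tested, -0.43), and 1 of 2 fell in the miR-125 family (median -0.97). Neither miR-221 nor miR-222 was detected on all 5 arrays, and 1 of the pair was detected only at day 30. miR-34a-5p was the 1 tested member of the hypoxia and p53 list. Over all tested miRNAs 19.7% rose and 42.5% fell.

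**Figure D3:**
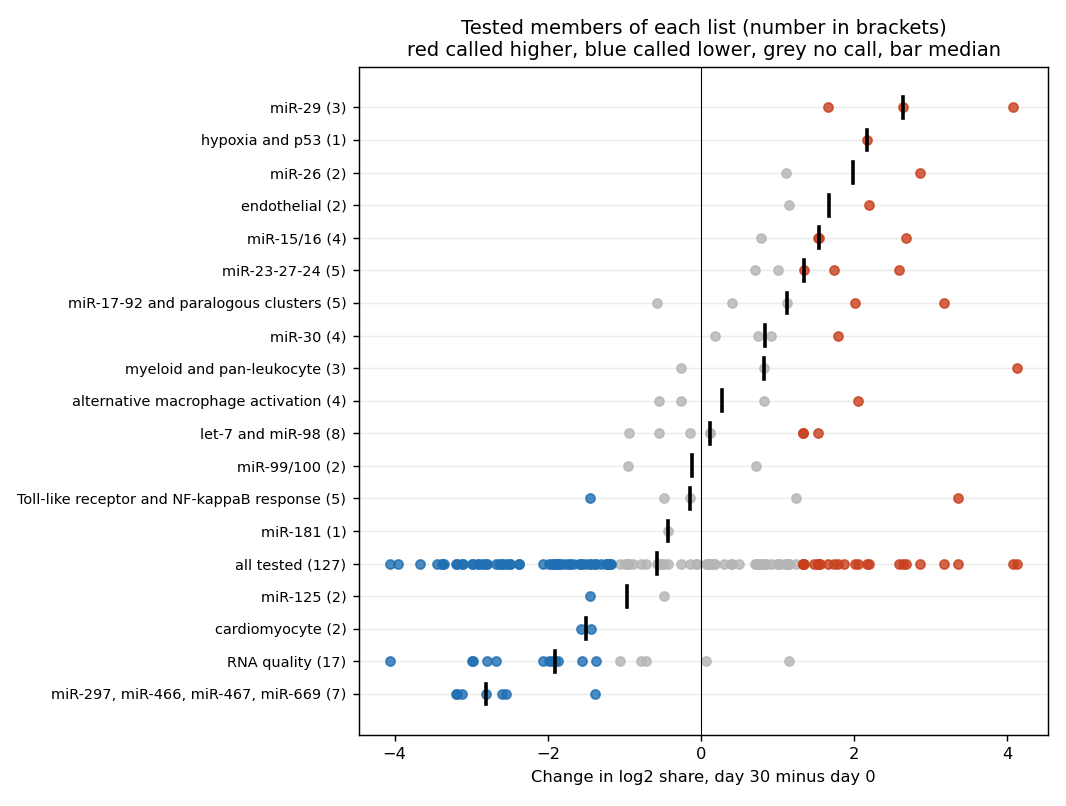
Change in log2 share (day 30 minus day 0) of every tested member of each list of miRNAs, with the number tested in brackets, a bar at the median, and all 127 as a row of their own. Members of the miR-29 list lie right of zero, and members of the RNA quality list and of the miR-297, miR-466, miR-467 and miR-669 list lie mostly left of it; without scaling, 125 of the 127 had higher signals at day 30.

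The miRNAs with the largest falls on both measures held few with a known role in macrophages. miR-494-3p, from the imprinted Dlk1-Dio3 region, fell from 1.05% and 1.79% to 0.0898%, 0.0716% and 0.239% (-3.66 ± 0.53, adjusted p = 4.34e-08). Its rank went from 21 and 10 to 67, 73 and 52 (adjusted p = 0.000809). The day 30 values differed among themselves more than for most miRNAs and still lay under both day 0 values. Without scaling its mean signal was 0.17 log2 higher at day 30, with an SE of 0.64, and its change relative to the dmr control features was -0.24.

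The brightest of these entries were miR-5109_v19.0 and miR-6243_v19.0, whose suffix is that of the files. miR-5109_v19.0 fell from 8.55% and 19.0% to 1.45%, 1.72% and 1.90% (-2.98 ± 0.53, adjusted p = 2.49e-06). miR-6243_v19.0 fell from 5.50% and 9.95% to 0.884%, 1.02% and 1.40% (-2.85 ± 0.53, adjusted p = 4.9e-06). miR-709 fell from 3.47% and 2.34% to 0.445%, 0.447% and 0.451% (-2.67 ± 0.53, adjusted p = 1.59e-05). In all 3 the groups stood apart and the rank also fell, as the choice of these entries required. miR-709 went from rank 7 on both day 0 arrays to 40, 40 and 42. miR-3473b fell from 1.31% and 3.36% to 0.244%, 0.285% and 0.367% (-2.90). The changes of miR-5105_v19.0 and miR-2137 were -2.99 and -2.80. miR-6360, miR-467f, miR-669p-3p, miR-5107-5p and miR-3098-5p completed the 12, with changes of -3.35, -3.20, -3.19, -2.63 and -2.50. Without scaling all 12 had higher mean signals at day 30, by 0.17 to 1.33 log2, so that none fell in mean signal. The brightest entry of all, miR-6366, held 21.4% and 26.5% at day 0 and 24.5%, 27.6% and 24.1% at day 30 (0.08 ± 0.53, adjusted p = 0.904).

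A list of entries reported elsewhere to be fragments of longer RNAs, used here as a sign of RNA quality, moved with the groups. Of its 17 tested members 12 fell and 0 rose on the share, against 42.5% and 19.7% of all tested. The median change was -1.91 against -0.57. On the rank 10 moved down and 1 up, against 17.3% and 12.6% of all tested. The summed share of the 17 was 18.9% and 31.8% at day 0 and 6.08%, 6.91% and 7.14% at day 30. miR-721, the largest fall in share of all 127, is in this list; it went from 0.0752% and 0.454% to 0.0101%, 0.0117% and 0.0127% (-4.06 ± 0.60, adjusted p = 6.07e-08), and its rank change did not pass (adjusted p = 0.0566). Because shares add up to a fixed total, a fall of this summed share raises the share of the rest, and its part in the rises above was not tested.

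miRNAs named miR-297, miR-466, miR-467 and miR-669, many of which lie in an intron of Sfmbt2, had 7 tested of 61 on the array. All 7 fell in share (median -2.81), against 42.5% of all tested. On rank 2 of the 7 also fell, miR-467f and miR-669p-3p, against 17.3% of all tested. The summed share of the 7 was 0.482% and 1.49% at day 0 and 0.236%, 0.294% and 0.248% at day 30. These are repeat-like sequences of one another, as the miR-467f sequence above shows, and signal of one probe may include that of its relatives. On the array 49 of the 61 were detected on none of the 5 arrays, against 71.9% of all miRNAs on the array. Without scaling all 7 tested had a higher mean signal at day 30, by 0.63 to 2.45 log2.

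Of the macrophage and leukocyte markers, miR-223-3p, miR-142a-3p, miR-511-3p and miR-146a-5p were detected on all 5 arrays. This made 4 of the 6 on the marker list, against 10.2% of all miRNAs on the array. For cardiomyocytes it was 2 of 6 and for endothelium 1 of 2. Of the cardiomyocyte list, miR-133a-3p fell in share from 0.0245% and 0.0191% to 0.00793%, 0.00671% and 0.00675% (-1.57 ± 0.52, adjusted p = 0.00731). miR-133b-3p fell from 0.0430% and 0.0349% to 0.0146%, 0.0130% and 0.0148% (-1.44 ± 0.52, adjusted p = 0.0134). Neither passed on rank, and both changes were positive without scaling (2.27 and 2.39), with the dmr control features (1.86 and 1.99), with quantile normalization (0.68 and 0.010) and with cyclic loess (1.09 and 0.72). The summed share of the pair was 0.0675% and 0.0541% at day 0 and 0.0226%, 0.0197% and 0.0216% at day 30. miR-1a-3p was detected only at day 30. Its day 30 share was 2.57 times the day 0 limit described below, so that it was higher while the pair fell in share. miR-208a-3p, miR-208b-3p and miR-499-5p were detected on none of the 5 arrays.

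Of the endothelial list, miR-126a-3p, from an intron of Egfl7, held 0.0434% and 0.138% at day 0 and 0.173%, 0.160% and 0.177% at day 30. The groups did not overlap, and the change of 1.15 ± 0.53 did not pass (adjusted p = 0.0537). miR-10a-5p, described above, is in this list also. None of the fibroblast, lymphocyte, erythroid or epithelial, liver and neuron lists had a miRNA detected on all 5 arrays. Of their members 4 of 7, 2 of 3, 1 of 3 and 6 of 9 were detected on all 3 day 30 arrays and neither day 0 array, against 9.3% of all miRNAs on the array (most of which, 71.9%, were detected on none). Among them were miR-150-5p of lymphocytes and miR-451a of red cells. The ratio of their day 30 share to the day 0 limit described below was 0.829 to 6.64 for the 4 and 0.45 and 2.19 for the 2. It was 7.67 for the 1 and 0.305 to 1.02 for the 6. At a ratio of 1 or less no difference from day 0 can be stated, as for miR-150-5p (0.45). The part of other cell types in the changes was not tested.

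Detection itself differed with the brightness of the arrays. For the 116 miRNAs detected on every day 30 array and neither day 0 array, the day 0 share has only an upper limit, the higher of the probe's own share and the lowest share detected on that array. Against this limit, 41 were higher at day 30, 23 of them by more than 2-fold, and for 75 no difference could be stated. miR-142a-5p was at least 25.4-fold higher, with 0.241%, 0.162% and 0.184% of the signal at day 30, followed by miR-101a-3p (at least 16.2-fold) and miR-19a-3p (at least 10.8-fold). miR-451a was at least 7.67-fold, miR-101c at least 7.17-fold and miR-340-5p at least 7.08-fold higher. All 3 entries named miR-101, a family that represses Ezh2, belonged to this set, against 9.3% of all miRNAs on the array. The sequence of miR-101c lies wholly within that of miR-101a-3p, and signal of one probe may include that of the other. The 3 are therefore not separate counts. At day 7, 55 of the 116 were detected on none of the arrays and 23 on all 3.

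In the other direction, miR-290a-3p and miR-3100-3p were detected on both day 0 arrays and no day 30 array. Their day 0 shares were at least 29.4 and 26.8 times those at day 30. The signals themselves differed far less, since each share divides by a summed signal that was at least 9.24 times larger at day 30. These bounds rest on weak spots: the signal of miR-290a-3p was 3.77 and 5.52 scanner units at day 0 and 1.40, 1.43 and 1.30 at day 30, and that of miR-3100-3p was 3.86 and 4.47 against 1.97, 2.01 and 1.83.

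Day 7 arrays of the same Ly6clow population were nearer to day 0 in brightness, with a summed signal of 20684 to 69054. They lay below every day 30 array (225160 to 348820). Stage and brightness therefore cannot be told apart between day 7 and day 30 either. In the limma test of day 30 against day 7, 84 of 127 shares passed (66.1%), 28 higher (22%) and 56 lower (44.1%). Of the 25 miRNAs called higher against day 0, let-7i-5p, miR-23b-3p, miR-34a-5p, miR-10a-5p, miR-27b-3p and miR-21a-5p lay above both day 0 arrays on all 3 day 7 arrays as well. miR-10a-5p was at 0.0921%, 0.142% and 0.169% at day 7, on both sides of its day 30 values, and its day 30 and day 7 shares did not differ by the test (adjusted p = 0.647). miR-21a-5p was at 3.51%, 2.67% and 3.59% at day 7, between day 0 and day 30, and the rise from day 7 to day 30 passed (1.50 log2, adjusted p = 0.00504).

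For miR-142a-3p and miR-29b-3p the day 7 values were within the day 0 range. miR-142a-3p held 0.118%, 0.056% and 0.0996% at day 7, and miR-29b-3p 0.101%, 0.0355% and 0.0724%. Both had larger shares on the brighter day 30 arrays than at day 7, by 3.84 and 4.24 log2 (limma, adjusted p = 3.89e-09 and 3.69e-10). miR-322-5p was below both day 0 arrays on all 3 day 7 arrays. Of all 127 miRNAs, 14 lay above and 10 below both day 0 arrays on all 3 day 7 arrays. Of the 54 called lower, 5 lay above, miR-3098-5p among them, and 6 below, namely miR-709, miR-5107-5p, miR-328-3p, miR-133a-3p, miR-125a-5p and miR-1839-3p. Without scaling the latter 6 had a higher mean signal at day 30 than at day 0.

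**Figure D4:**
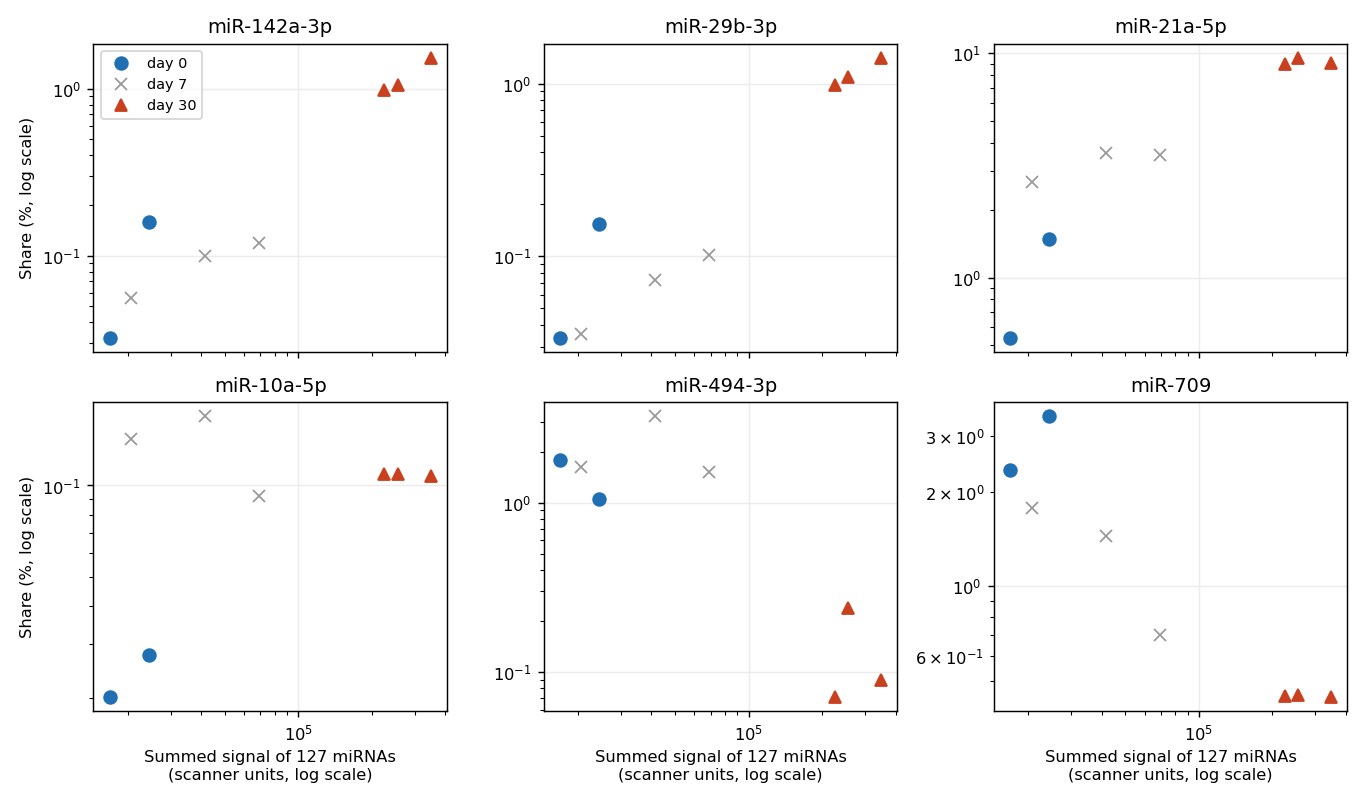
Share in percent (vertical, log scale) against the summed signal of the 127 miRNAs on the same array (horizontal, scanner units, log scale) for 6 miRNAs, with 2 day 0, 3 day 7 and 3 day 30 arrays. The day 30 arrays lie apart at the right in every panel; shares of miR-142a-3p and miR-29b-3p were larger on brighter arrays within day 0 and within day 7 too, and miR-494-3p and miR-709, lower in share at day 30, had higher mean signals there without scaling.

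Inside groups, the relation of share to brightness differed between pairs of arrays. Between the 2 day 0 arrays, 24 of the 25 miRNAs called higher had the larger share on the brighter array, against 71 of all 127, and 43 of the 54 called lower had the smaller share there, against 56 of all 127. Between day 7 replicates 1 and 2, which differed 3.34-fold in summed signal, 21 of the 25 and 50 of the 54 followed this direction, against 47 and 80 of all 127. Over all 10 pairs of arrays within groups these counts ran from 10 to 24 of the 25, against 19 to 99 of all 127. For the 54 they ran from 17 to 52, against 28 to 108 of all 127. The lowest of the 25 was 10, for day 7 replicates 1 and 3, against 19 of all 127. The lowest of the 54 was 17, for day 3 replicates 1 and 2, against 52 of all 127. Within day 30, replicate 1 against replicates 2 and 3 gave 14 and 11 of 25, against 46 and 41 of all 127. Day 7 replicate 2, at 20684 units, lay between the 2 day 0 arrays in brightness. On that array 6 of the 25 were above both day 0 arrays and 9 below both, of the 54 lower ones 9 were below both and 26 above both, and of all 127 there were 43 above both and 31 below both. With brightness as a covariate the changes of miR-142a-3p and miR-29b-3p were -0.01 ± 1.46 and -0.72 ± 1.36, and those of miR-10a-5p, miR-21a-5p and miR-494-3p were 2.92 ± 0.997, 1.78 ± 1.15 and -3.16 ± 1.26. None passed after adjustment.

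Base composition varied with the change in the families listed. For all tested miRNAs the comparison was void, since 79.5% had a RefSeq mature sequence and the minimum set was 80%. Of 36 tested members of 12 seed families and clusters 33 had one, with G and C making up 31.8% to 63.6%. Of the 18 with less than 45% G and C, 11 were called higher and 0 lower (median change 1.43); of the 15 others 3 were called higher and 1 lower (median 0.70). Across these 33 miRNAs, which share arrays and in part precursors and are not independent, the change had a Pearson correlation of -0.53 with the G and C content (Spearman -0.53), and -0.54 and -0.51 on the 2 slides. The same correlation between brighter and dimmer arrays was -0.23 within day 0, -0.22 to -0.35 within day 7 and -0.08 to -0.15 within day 30.

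Among members with one seed, less G and C went with the larger change in some groups and not in others. In the miR-29 family the changes of 4.07, 2.63 and 1.66 belonged to sequences with 34.8%, 36.4% and 40.9% G and C, and in the miR-26 pair 2.86 and 1.11 to 33.3% and 40.9%. In the miR-27 pair 2.59 and 1.73 belonged to 47.6% and 52.4%, and in the miR-99 pair 0.72 and -0.95 to 50% and 63.6%. The 2 tested miRNAs with the miR-20a-5p seed changed by 2.00 and 1.12, with 39.1% and 52.2%. The 2 with the miR-92a-3p seed changed by 0.41 and -0.57, with 50% and 57.1%. miR-15a-5p and miR-15b-5p, which have the same G and C content of 40.9%, changed by 2.68 and 0.78. In the other direction, miR-16-5p with 45.5% changed by 1.53, more than miR-15b-5p, and let-7i-5p with 40.9% by 1.33, more than let-7a-5p with 36.4% (0.12). The miR-30 members with 43.5% and 45.5% changed by 0.75 and 0.91, also in that direction. In the miR-17-92 cluster miR-19b-3p and miR-20a-5p have 39.1% and miR-92a-3p has 57.1%. The part of base composition in these changes was not tested.

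**Figure D5:**
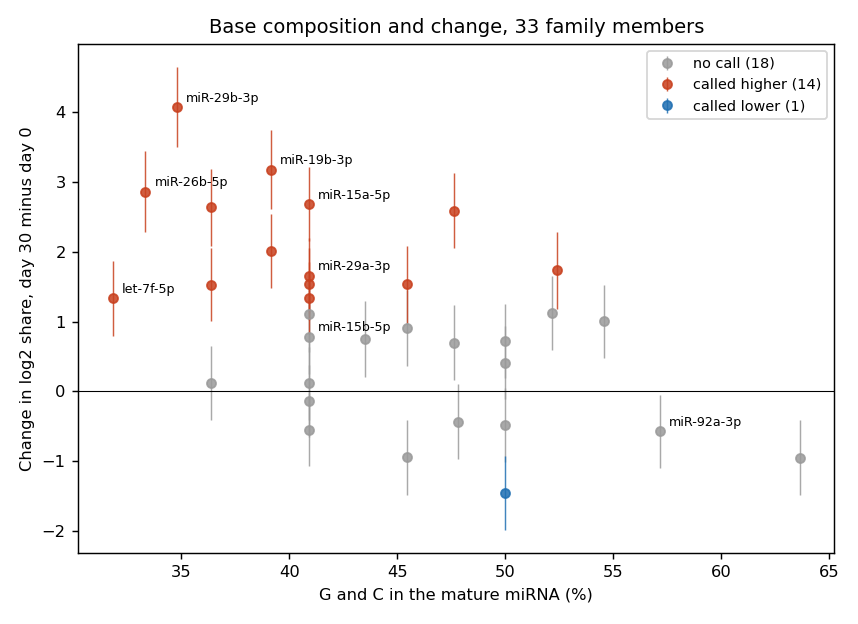
Change in log2 share (day 30 minus day 0, with its standard error as bars) against the percentage of G and C in the mature miRNA for 33 tested members of the seed families and clusters; red marks 14 called higher, blue 1 called lower and grey 18 not called. miR-29b-3p and miR-19b-3p lie highest, let-7f-5p, with the least G and C, lies at 1.33, and miR-92a-3p lies below zero, although its change was positive without scaling.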

How the data were processed

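Per the labels' protocols, small RNA was isolated with the miRNeasy Micro kit and labelled with Cy3. Agilent Feature Extraction read the scans, per the submitters' processing notes; a version and a genome build were not given in the sources used here. Per the file headers, each deposited scanner file gives gTotalGeneSignal (a linear intensity, with an error) and whether the miRNA was detected (other) for 1247 miRNAs and 21 controls. The authors' deposited table holds log2 values for 317 miRNAs and served as an alternative. Within each array its ranks equal those of the scanner values.

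miRNAs detected on all 5 arrays (127) were expressed as log2 share of their summed signal and as within-array rank. Each was fitted in limma 3.58.1 (R 4.3.3, tables with pandas 2.3.3) over 4 groups and 10 samples, with day 30 replicates 2 and 3 averaged in log2. The fit had 6 residual degrees of freedom. To these limma added prior degrees of freedom borrowed across the 127 miRNAs, 66.8 for the share and 2.22 for the rank. The p-values on the share therefore rest mostly on spread shared among miRNAs measured on the same 10 samples. The threshold was 0.05 on p-values adjusted by Benjamini-Hochberg over the 127. Arrays, and not reads, limit the precision. The test was tried on simulated data.

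The members, 24 lists, rules and tests were chosen with earlier results of these data known. Named miRNAs were the 12 largest changes in each direction passing both tests without overlap, the 8 brightest, up to 4 per list, 5 macrophage miRNAs and the 6 largest bounds; fewer are named. miR-5622-3p, miR-1224-5p, miR-149-5p, miR-328-3p and miR-1839-3p were named after their values were seen. A bound divides mean log2 shares, taking for an undetected array the higher of its lowest detected share and the probe's own. Slides come from the array layout of the files. RefSeq names and sequences matched 101 of the 127. Alternatives covered scaling, filters, blocks, brightness, the number of arrays and each replicate left out.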

Additional observations from a re-analysis of the deposited data

Results flagged for a closer look

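For 20 of the 24 miRNAs with the largest changes on both measures, the change from day 0 differed between day 30 and day 7, against 84 of all 127 (66.1%); the 24 were chosen for their day 30 values. Both changes share the day 0 arrays, so the test is that of day 30 minus day 7 in the same limma fit, in log2 share. Above day 7 were miR-29b-3p by 4.24, miR-142a-3p by 3.84, miR-19b-3p by 3.56, miR-15a-5p by 3.20, miR-322-5p by 2.30, miR-20a-5p by 2.04, let-7g-5p by 1.60 and miR-21a-5p by 1.50, with adjusted p-values from 3.69e-10 to 0.00504. Among miRNAs with a smaller share the differences were -4.20 for miR-494-3p, -3.64 for miR-5105_v19.0, -3.47 for miR-6360, -3.36 for miR-2137, -3.02 for miR-6243_v19.0 and -2.97 for miR-3473b. They were -2.95 for miR-3098-5p, -2.84 for miR-5109_v19.0, -2.56 for miR-467f, -2.53 for miR-669p-3p, -1.66 for miR-5107-5p and -1.44 for miR-709. With array brightness as a covariate limma called 0 of 127 differences between day 30 and day 7, and 20 had an unadjusted p under 0.05.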

How the results depend on the processing

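Of the 79 calls on the share, limma kept 63 to 79 in the same direction with all 11 arrays separate, only the 4 samples compared, a slide block, the authors' table, the 75th percentile, median centring, a denominator without the 10 brightest, and the filters tried. Quantile normalization called 46 against day 0, of which 42 were among the 79 in the same direction, and 53 against day 7; cyclic loess called 65, with 52 of the 79 in the same direction and 3 in the other. The filter of detection on at least 2 of 11 arrays called 217 and 207 of 369. Leaving out each replicate gave 46 to 97 calls against day 0, 59 to 92 against day 7 and 11 to 86 on rank. On rank, 11 separate arrays called 59, the slide block 63 and only the 4 samples compared 0 (32 unadjusted). With brightness as a covariate limma called 0 in all 3 comparisons (14, 22 and 20 unadjusted). Replicate numbers do not mark shared animals, and same-numbered arrays did not all deviate together; with the replicate number as a block, 87 passed on share and 56 on rank.

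The median change of all 127 was -0.57, and 3.26 without scaling, 2.85 with the dmr control features, -1.07 with the 75th percentile, -0.30 with median centring, 0.16 with quantile normalization, 0.29 with cyclic loess and -0.02 with brightness as a covariate. Without scaling 109 passed, all higher, and with the dmr features 101, all higher, against 25 higher and 54 lower.

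With the array brightness as a covariate the sign of the log2 change turned for let-7f-5p (-0.42), miR-125a-5p (0.46), miR-142a-3p (-0.0072), miR-146a-5p (-1.92), miR-16-5p (-1.84), miR-19b-3p (-0.79), miR-223-3p (-0.81), miR-26a-5p (-1.26), miR-26b-5p (-1.93), miR-27a-3p (-0.63), miR-27b-3p (-0.21), miR-29b-3p (-0.72), miR-29c-3p (-0.41), miR-30b-5p (-3.39), miR-3473b (0.025), miR-5105_v19.0 (1.41), miR-511-3p (-1.72), miR-6366 (-2.54), miR-721 (1.60) and miR-92a-3p (2.11); the cause was not tested. Without scaling, and then with the dmr features, it turned for miR-125a-5p (2.38, 1.98), miR-133a-3p (2.27, 1.86), miR-133b-3p (2.39, 1.99), miR-2137 (1.03, 0.63), miR-3098-5p (1.33, 0.93), miR-3473b (0.93, 0.53), miR-467f (0.63, 0.23), miR-5105_v19.0 (0.84, 0.44), miR-5107-5p (1.20, 0.79), miR-5109_v19.0 (0.85, 0.45), miR-6243_v19.0 (0.98, 0.58), miR-6360 (0.48, 0.078), miR-669p-3p (0.64, 0.24), miR-709 (1.16, 0.76) and miR-92a-3p (3.26, 2.85), and for miR-494-3p only without scaling (0.17). It turned for miR-133a-3p and miR-133b-3p with quantile normalization (0.68 and 0.010) and cyclic loess (1.09 and 0.72), and for let-7a-5p and miR-6366 with the 75th percentile (-0.38 and -0.42) and without the 10 brightest in the denominator (-0.016 and -0.056). Leaving out a day 0 array moved let-7a-5p between -0.61 and 0.84, miR-223-3p between -0.13 and 1.76 and miR-6366 between -0.076 and 0.23. Dim day 0 arrays limit what could be detected there, and no alternative parts brightness from stage.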
